A study of Gallus gallus with 3 samples.

Results

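Sub-cluster 9 of the stage HH31 library was a mesenchymal population of the chicken hindlimb digit tip in which, as in its neighbour sub-cluster 11, transcripts of mitosis were at higher medians per cell than in the other 9 sub-clusters. Its members were all deposited cells that the authors' fine clustering column assigned to number 9, without any further selection. They were 301 of the 4823 HH31 cells, a share of 6.24% (exact 95% Clopper-Pearson interval 5.57 to 6.96%), and 301 of the 17628 cells of all 3 libraries. In the broad clustering of the same authors, 298 of the 301 cells lay in cluster 6, which held 638 cells and was otherwise made up of 338 cells of sub-cluster 11 and 2 cells of sub-cluster 7. Sub-cluster 11 (360 cells) was therefore the nearest population to set beside it, apart from the comparison with all 4522 other HH31 cells.

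A dividing cell builds up B-type cyclins before mitosis, and these switch on the kinase CDK1. The spindle then attaches to the chromosomes at the kinetochores, and a checkpoint holds the anaphase-promoting complex in check until every chromosome is attached. Once released, this ubiquitin ligase, with its activator CDC20, marks the cyclins and the separase inhibitor securin (PTTG1) for destruction, so that the chromosomes part. Many of these transcripts build up through G2 and are lost after division, whereas the transcripts of DNA replication factors and of most histones peak earlier, around S phase. In the growing digit tip, dividing mesenchyme supplies the cells from which skeleton and connective tissue form.

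Chicken embryonic hindlimb tissue was sampled at 3 stages, each as 1 library. Stage HH25 was taken from the entire autopod and stage HH31 from the tip of digit 4, both with 10x v2 chemistry and with the reads of 2 sequencing runs joined, while stage HH29 came from digits 3 and 4 by Drop-seq in 3 technical replicates. All tissue was dissociated with trypsin and polyA RNA was read. No genotype, treatment or agent separated the libraries, the number of embryos behind each was not given in the sources used here, and stage changed together with dissection and, at HH29, with the platform.

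The values were unique molecular identifiers (UMIs), which count each captured transcript once. The HH31 table held 13373746 UMIs with 1066 to 12017 per cell, that of HH25 13875684 UMIs in 5982 cells and that of HH29 24108511 UMIs in 6823 cells. Sub-cluster 9 contributed 902816 UMIs (1069 to 7659 per cell), sub-cluster 11 1129227 UMIs and all other HH31 cells together 12470930 UMIs. Levels are given as CPM, a gene's UMIs per 1000000 UMIs of the same population after pooling its cells, and differences between populations as log2 ratios of these levels. Ranges in parentheses after a level, ratio or share are exact 95% intervals of the counts unless named otherwise. They cover counting error only, since 1 library per stage gave no biological replicate. For the same reason no p-value was computed, and because the genes compared had also made the clusters, sub-cluster 9 against other cells is a description and not a test. Of the HH31 barcodes, 48 also occurred in the HH25 library, 6 of them in sub-cluster 9, and leaving them out gave 300 genes higher and 246 lower in the comparison with all other cells, close to the 289 and 241 with all barcodes.

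*CCNB3* and *CDC20*, the markers given for sub-cluster 9, had been chosen on these same cells and set it apart. *CCNB3* (ENSGALG00000025810), a B-type cyclin, had 230 CPM (200 to 264) in sub-cluster 9, 135 CPM (114 to 158) in sub-cluster 11 and 20.8 CPM or less in each of the other 9 sub-clusters. *CDC20* (ENSGALG00000009971), the activator of the anaphase-promoting complex, had 456 CPM (413 to 503) in sub-cluster 9, against 282 CPM (252 to 314) in sub-cluster 11, 77.1 CPM in sub-cluster 6 and 51.5 CPM or less in the remaining 8. For both genes, sub-cluster 9 was highest and sub-cluster 11 second, with intervals that did not overlap. *PRRX1*, a transcription factor of limb mesenchyme, had 1676 CPM in sub-cluster 9, 1641 CPM in sub-cluster 11, 1019 CPM in all other cells and 58.7 CPM in the skin sub-cluster 5.

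**Figure D1:**
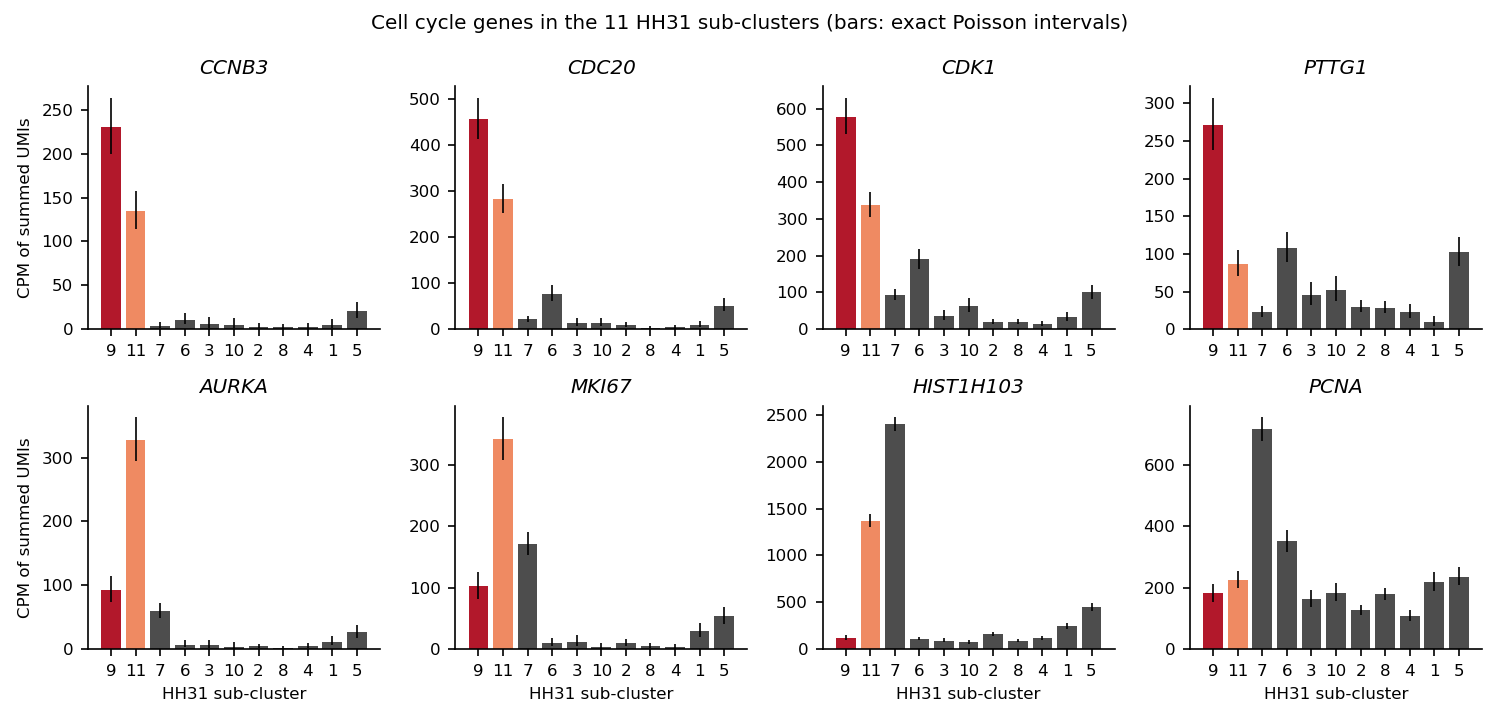
Levels in CPM (y axes) of 8 genes in the 11 HH31 sub-clusters (x axes, sub-cluster 9 leftmost, then 11), each bar from UMIs summed over the cells of a sub-cluster and each line an exact 95% counting interval. *CCNB3*, *CDC20*, *CDK1* and *PTTG1* stood highest in sub-cluster 9, *AURKA* and *MKI67* in sub-cluster 11, and *HIST1H103* and *PCNA* in sub-cluster 7.

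Cell by cell, *CCNB3* was detected in 129 of 301 cells of sub-cluster 9 (42.9%, 37.2 to 48.7%) and in 113 of 360 cells of sub-cluster 11 (31.4%, 26.6 to 36.5%). In sub-cluster 8, distal mesenchyme with few mitotic transcripts, 4 of 665 cells (0.602%) held a *CCNB3* UMI, at a median of 2253 UMIs per cell against 2789 in sub-cluster 9 and 2784 in sub-cluster 11. With every cell thinned to 1000 UMIs, the shares for *CCNB3* were 22.6% in sub-cluster 9, 15% in sub-cluster 11 and, as background, 0.451% in sub-cluster 8. The order of the 3 populations was thus the same at equal depth. *CDC20* was found in 64.1% (58.4 to 69.5%) of the cells of sub-cluster 9, 49.4% (44.2 to 54.7%) of sub-cluster 11 and 0.752% of sub-cluster 8, and after thinning in 31.9%, 24.2% and 0.451%. The thinned intervals of sub-clusters 9 and 11 overlapped here too (26.7 to 37.5% and 19.8 to 28.9%). Detection was sparse even where the genes were highest, with at most 8 *CCNB3* and 12 *CDC20* UMIs in a cell of sub-cluster 9.

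A share of each cell's UMIs was taken over 88 mitotic genes, those of cyclins and kinases, the anaphase-promoting complex, kinetochore and spindle. Within sub-cluster 9 it had a median of 1.73% per cell, with quartiles of 1.30 and 2.16% and a full range of 0.582 to 3.55%. Sub-cluster 11 covered a similar range, with a median of 1.85% (0.709 to 3.58%, lowest to highest). Sub-clusters 7 and 6 followed with medians of 0.664% and 0.607%, and the other 7 lay between 0.226 and 0.434%. Of the 4522 cells outside sub-cluster 9, 396 (8.76%) reached its lower quartile, and 309 of these were in sub-cluster 11, with another 38 in sub-cluster 7, 27 in the skin sub-cluster 5 and 11 in sub-cluster 6.

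**Figure D2:**
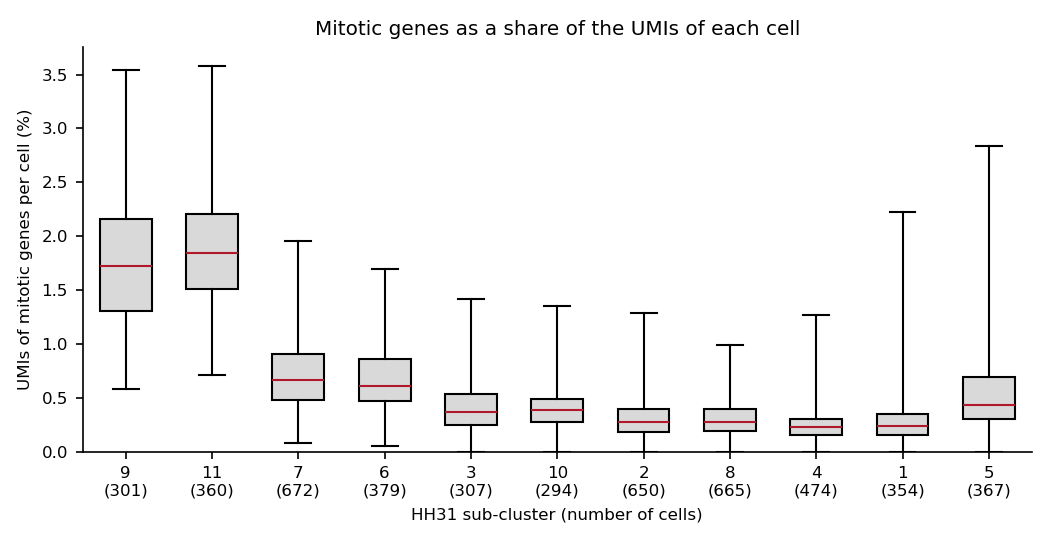
Percent of a cell's UMIs from 88 mitotic genes (y axis) in the cells of each HH31 sub-cluster (x axis, sub-cluster 9 leftmost, then 11), with the median as a line, quartiles as a box and whiskers to the lowest and highest cell. Sub-clusters 9 and 11 had medians of 1.73% and 1.85%, while no other sub-cluster had a median above 0.664%.

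The cells of sub-cluster 9 without a marker UMI were not empty of mitotic transcripts. A UMI of *CCNB3* or *CDC20* was present in 225 of the 301 cells (74.8%) and of both in 97, compared with 220 of 360 cells (61.1%) and 71 cells in sub-cluster 11. In the 76 cells of sub-cluster 9 with neither, which were shallower (median 2179 UMIs), the rest of these mitotic genes took a median of 1.29% of UMIs (0.582 to 3.13%, lowest to highest cell). The 225 cells with either marker (median 2951 UMIs) had a median of 1.80% (0.631 to 3.28%), and the 3953 cells outside sub-clusters 9 and 11 with neither marker had 0.349%. By the same measure, without *CCNB3* and *CDC20*, the 3 cells of sub-cluster 9 that fell outside broad cluster 6 had 0.608 to 1.09%. A median of 28 of the 88 mitotic genes was detected per cell of sub-cluster 9 (6 to 59, lowest to highest) and of 30 per cell of sub-cluster 11 (11 to 59).

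The authors also deposited cell cycle scores for each cell. These were computed from genes of the same cells and are not independent evidence. Their medians differed between the same 2 sub-clusters and the others. The median G2M score was 0.998 in both sub-clusters 9 and 11 and between 0.822 and 0.983 in the others. It was near its upper limit in many cells, and quartile ranges overlapped, with 0.984 to 1 in sub-cluster 9 and 0.8175 to 0.999 in sub-cluster 1. The median S score was 0.295 in sub-cluster 9, 0.316 in sub-cluster 11 and between 0.488 and 0.598 elsewhere. The authors had removed the difference of the scores from the expression values before clustering, and its median nevertheless was −0.68 in sub-cluster 9 and −0.67 in sub-cluster 11, against −0.32 to −0.27 in the other 9 (S minus G2M in every cell of the table).

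Against all other HH31 cells, 289 of 6040 genes (4.78%) were at least 2-fold higher in sub-cluster 9 and 241 (3.99%) at least 2-fold lower, among genes with 100 or more UMIs in the table. The median log2 ratio of all 6040 genes was 0.28 and not 0, and cytosolic ribosomal protein transcripts took a smaller share of the UMIs in sub-cluster 9. With ribosomal protein and mitochondrially encoded genes left out of the totals, all ratios dropped by 0.25, the median was 0.02 and the counts were 134 higher and 361 lower. Ratios below are on the full totals and are to be read against the median of 0.28. Of the 107 tested mitotic genes in 5 lists, 69 were at least 2-fold higher and none was 2-fold lower, with a median log2 ratio of 1.48. On the reduced totals, 64 were higher and 1, *FBXO5*, was lower. These lists were put together by gene function, but names were at hand mainly for genes in the study's own marker tables, so the counts are not independent evidence.

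**Figure D3:**
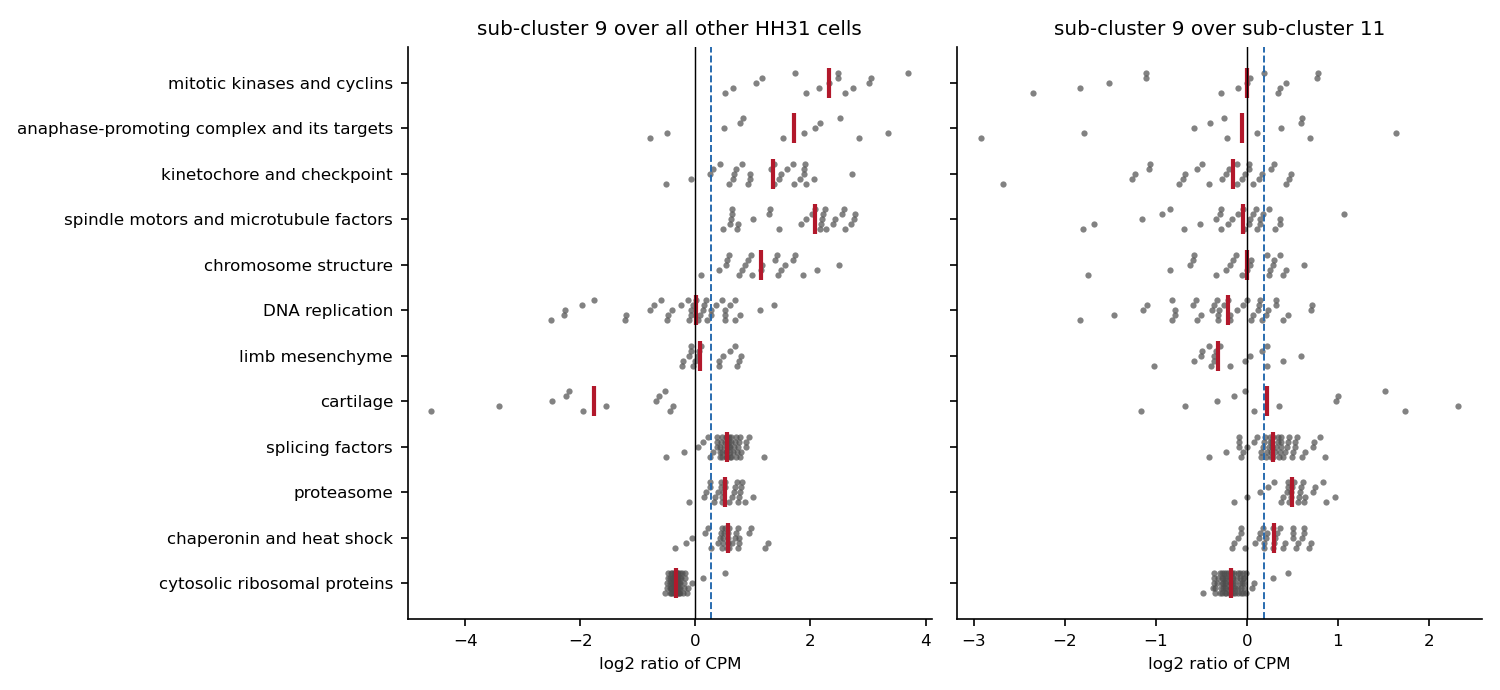
Log2 ratio of CPM (x axes) of each tested gene (dots) in 12 gene lists (y axis), for sub-cluster 9 over all other HH31 cells on the left and over sub-cluster 11 on the right, with a red tick at each list's median and a dashed line at the median of all 6040 genes (0.28 and 0.19). The 5 mitotic lists lay well to the right of the dashed line on the left and spread to both sides of it on the right.

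The kinases and cyclins that drive entry into mitosis differed most. Summed over 16 named genes they had 3152 CPM in sub-cluster 9 and 596 CPM in all other cells, a log2 ratio of 2.40 (2.34 to 2.46). Of the 15 genes tested, 13 were at least 2-fold higher. *CDK1* (ENSGALG00000003085), the catalytic partner of the B-type cyclins, had 578 CPM (530 to 630) in sub-cluster 9 and 87.0 CPM in all other cells, a log2 ratio of 2.73 (2.58 to 2.88). *CCNB2*, another B-type cyclin, had 373 CPM in sub-cluster 9 and 67.3 CPM in all others. The ratio was 3.02 (2.79 to 3.25) for *PLK1*, a kinase of spindle assembly, and 3.05 (2.86 to 3.24) for *BUB1B*, a checkpoint kinase that keeps CDC20 inactive. The 2 genes under 2-fold were *NEK2*, a centrosome kinase, at 0.51 (−0.40 to 1.30) and *PLK4*, the kinase of centriole duplication, at 0.66, and *AURKA* reached 1.05. All other cells included sub-cluster 11, which held 89 of their 136 *NEK2* UMIs. It also held 370 *AURKA* UMIs, at 328 CPM.

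Among 12 genes of the anaphase-promoting complex and its targets, 7 were at least 2-fold higher and none was 2-fold lower (summed log2 ratio 2.07, 2.0 to 2.13). *CDC20* came first with 3.34 (3.16 to 3.53). *UBE2C*, the ubiquitin-conjugating enzyme of the complex, had 865 CPM in sub-cluster 9 and 121 CPM in all others (2.84, 2.72 to 2.97), and its partner *UBE2S* had 247 and 58.4 CPM. *PTTG1* (ENSGALG00000001506), or securin, had 271 CPM (238 to 308) in sub-cluster 9 and 47.6 CPM in all others (2.51, 2.29 to 2.73), and *ESPL1*, the separase it inhibits, had 93.0 and 20.7 CPM. The lowest was *FBXO5*, an inhibitor of the complex that acts from S phase until mitosis begins, which stood at 12.2 CPM in sub-cluster 9 against 21.0 CPM in all others (−0.79, −1.81 to 0.08). Sub-cluster 11 held 104 of the 262 *FBXO5* UMIs of all others. *GMNN* was also below 0 (−0.49, −1.06 to 0.03), and the other 10 were above it.

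Kinetochore and checkpoint genes, 29 of them named, had a summed log2 ratio of 1.37 (1.32 to 1.42). Of the 28 tested, 15 were at least 2-fold higher and none 2-fold lower. *CENPE*, a kinetochore motor, had 238 CPM in sub-cluster 9 and 36.2 CPM in all others. *CENPF*, a large kinetochore-associated protein, had 650 and 177 CPM. *MAD2L1*, the checkpoint protein that binds CDC20, had 301 and 92.0 CPM, and *BIRC5* (survivin), of the chromosomal passenger complex, had 394 and 106 CPM.

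Spindle motors and microtubule factors included 22 of 29 tested genes at least 2-fold higher (31 named genes summed to 8233 CPM in sub-cluster 9 and 3224 CPM in all others). *KIF20A*, a motor of the late spindle and cytokinesis, *DLGAP5*, which stabilises kinetochore fibres, and *TPX2*, which nucleates spindle microtubules, had log2 ratios of 2.77 (2.53 to 3.01), 2.76 (2.56 to 2.97) and 2.70 (2.51 to 2.89). Tubulins form the spindle. *TUBB*, a beta tubulin, had 712 CPM in sub-cluster 9 and 184 CPM in all others (1.95, 1.82 to 2.08). Over 15 tubulin and actin genes the median ratio was 0.48, against 0.28 over all genes, and 3 were at least 2-fold higher. On the reduced totals the median was 0.22 and 2 were at least 2-fold higher.

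Chromosome structure genes, 24 of them named, had 14831 CPM in sub-cluster 9 and 6291 CPM in all others (summed log2 ratio 1.24, 1.21 to 1.26). Of the 23 tested, 12 were at least 2-fold higher. *HMGB2*, a chromatin protein, was found in 298 of the 301 cells at a median of 6 UMIs, and its level was 2445 CPM in sub-cluster 9 and 431 CPM in all others. *TOP2A*, which untangles sister chromatids, had 861 and 198 CPM, and the histone variant *H2AFZ* had 1658 and 610 CPM. *MKI67*, whose protein coats mitotic chromosomes and is widely used to mark proliferating cells, had a ratio of 0.58 (0.25 to 0.89). Sub-cluster 11 held 385 of the 852 *MKI67* UMIs of all other cells.

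Over all 11 sub-clusters, 45 of the 107 mitotic genes had their highest level in sub-cluster 9 and 90 had their highest or second highest level there. Of all tested genes, 1584 (26.2%) were highest in sub-cluster 9, which is the share to read the 45 against. Highest or second highest there were 2603 of all 6040, against which the 90 is to be read. Of the 107, 73 stood in the study's marker table of sub-cluster 9, and 3 were named solely through it.

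DNA replication genes did not share in this. Their summed level was 2609 CPM in sub-cluster 9 and 2647 CPM in all others (log2 ratio −0.02, −0.08 to 0.04), and 2 of 39 were at least 2-fold higher while 7 were 2-fold lower. The lower ones included the helicase subunits *MCM2*, *MCM3* and *MCM5* and the nucleotide-supplying enzyme *RRM2*. *MCM2* had 17.7 CPM in sub-cluster 9 and 85.1 CPM in all others (−2.26, −3.08 to −1.56), and *RRM2* had 24.4 and 95.7 CPM. *RFC3*, a subunit of the clamp loader, and *CDC45*, a helicase cofactor, were the 2 higher genes, at 1.37 and 1.12. *PCNA* (ENSGALG00000029292), the sliding clamp of the replication fork, had 182 CPM (155 to 212) in sub-cluster 9, 226 CPM in sub-cluster 11 and as much as 716 CPM in sub-cluster 7, which also had the highest sum of the list (6055 CPM). None of 5 genes of quiescence and cell cycle arrest passed 2-fold in either direction.

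Among genes with a UMI in sub-cluster 9, the 10 with the lowest ratios against all other cells had 1 or 2 UMIs each there, so that their order is not firm. Genes without a UMI there, such as *WNT6*, were set to the floor of 3 UMIs and cannot be ranked against them. *KRT19*, a keratin, and *CLDN1*, a tight junction protein, had 1 UMI each in sub-cluster 9 (1.11 CPM), against 492 CPM and 349 CPM in the skin sub-cluster 5. *COL17A1*, a hemidesmosome collagen, had 2 UMIs, and so had the cartilage collagen *COL9A3*, which had 558 CPM in the chondrocyte sub-cluster 1. *LRP1B*, a lipoprotein receptor family member, had 1 UMI in sub-cluster 9 and 20 in sub-cluster 11, and was highest in sub-cluster 8 at 78.5 CPM. The others were *SGCA*, *FXYD6*, *otokeratin*, *TFPI* and *MT1*.

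Among lists of other cell types, those of skin, cartilage and white blood cells were lower in sub-cluster 9 than in all others pooled. The remaining lists were not. Of 9 tested skin genes, 6 were at least 2-fold lower, the list had 130 CPM in sub-cluster 9, 118 CPM in sub-cluster 11 and, in the skin itself, 3148 CPM in sub-cluster 5, and no cell of sub-cluster 9 held more than 5 skin UMIs (median 0). Outside sub-cluster 5, the skin list ranged from 33.9 CPM in sub-cluster 10 to 336 CPM in sub-cluster 8. The ectodermal genes *SP8* and *WNT6* had no UMI in sub-cluster 9. With the floor of 3 UMIs in sub-cluster 9, the log2 ratio of *WNT6* against all other cells was −3.19 or lower. Of 12 cartilage genes, 7 were 2-fold lower, and *COL2A1*, the main cartilage collagen, had 55.4 CPM in sub-cluster 9 and 253 CPM in all others, with cartilage UMIs of 10 or more in only 2 cells. White blood cell genes gave 1 UMI in all 301 cells. Red blood cell genes had 1045 CPM in sub-cluster 9, 883 CPM in sub-cluster 11 and 1032 CPM in all others. Endothelial genes, on 22 UMIs, had 24.4 CPM in sub-cluster 9 and 17.1 CPM in all others (0.51, −0.19 to 1.15). Smooth muscle genes had 76.4 CPM in sub-cluster 9 and 61.7 CPM in all others (0.31, −0.07 to 0.67), and nearly all of their UMIs came from *MYL9*, a myosin light chain also made outside muscle. *MYL9* had 74.2 CPM in sub-cluster 9, compared with 30.1 CPM in sub-cluster 11 (1.30, 0.69 to 1.94). Whether other cells had a part in these values was not tested.

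Genes of limb mesenchyme and of position along the digit differed by less than 2-fold from the other cells. This held for all of the 18 limb mesenchyme, 8 distal mesenchyme and 9 interdigit genes tested, with list medians of 0.08, −0.07 and −0.24 (−0.18, −0.33 and −0.49 on the reduced totals, so that the sign of the first turned). Most genes stayed under 2-fold, since only 4.78% of all tested genes were at least 2-fold higher and 3.99% lower. Of 12 connective tissue genes, *DCN* (decorin) alone passed, at −1.04 (−1.54 to −0.58). *MSX1*, a transcription factor of distal and interdigital mesenchyme, had 505 CPM in sub-cluster 9, 755 CPM in sub-cluster 11 and up to 1245 CPM in sub-cluster 4. *HOXA11*, which patterns the limb along its length, was the only limb mesenchyme gene with its highest level in sub-cluster 9, at 164 CPM against 145 CPM in sub-cluster 7 and only 124 CPM in sub-cluster 11. Of all tested genes, 26.2% were highest in sub-cluster 9. Against sub-cluster 11, 12 of the 18 limb mesenchyme genes were lower in sub-cluster 9 and 6 were higher. Their median ratio was −0.32, against 0.19 over all genes, and 1 of the 18 was at least 2-fold lower. *AKR1D1*, a steroid reductase, had 225 CPM in sub-cluster 9, 149 CPM in sub-cluster 11, 483 CPM in the connective tissue sub-cluster 3 and, next to it, 396 CPM in sub-cluster 6.

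Sub-clusters 9 and 11 carried nearly equal totals of mitotic transcripts on the full totals, while lists and single genes differed between them in both directions. The 112 named genes of the mitotic lists summed to 32875 CPM in sub-cluster 9, compared with 32555 CPM in sub-cluster 11 (log2 ratio 0.01, −0.01 to 0.04). Without chromosome structure genes the ratio was −0.05 (−0.08 to −0.02). By list it was −0.30 (−0.36 to −0.24) for kinetochore, 0.22 (0.13 to 0.30) for anaphase-promoting complex and 0.10 (0.07 to 0.13) for chromosome structure genes. For kinases and cyclins (0.07) and spindle genes (−0.04) the interval included 0. The reduced totals moved every ratio by −0.14. The ratios of chromosome structure genes and of kinases and cyclins then turned below 0. Only anaphase-promoting complex genes stayed above 0, with an interval that then included it. Over all genes on the full totals, 314 of 6040 (5.20%) were at least 2-fold higher in sub-cluster 9 and 202 (3.34%) at least 2-fold lower, around a median of 0.19. On the reduced totals the counts were 201 and 280. Many of these genes had few UMIs, and only 191 of the higher and 109 of the lower ones had an interval that lay wholly beyond 0. Of the mitotic genes, 2 were at least 2-fold higher in sub-cluster 9 and 16 at least 2-fold lower, with a median of −0.06 (1 and 17 on the reduced totals, median −0.20).

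The mitotic gene that differed most towards sub-cluster 9 was *PTTG1*, with 271 CPM (238 to 308) in sub-cluster 9, compared with 86.8 CPM (70.5 to 106) in sub-cluster 11, a log2 ratio of 1.64 (1.30 to 2.0). A *PTTG1* UMI was found in 49.2% (43.4 to 55.0%) of the cells of sub-cluster 9 and 21.4% (17.3 to 26.0%) of sub-cluster 11. In sub-cluster 6 the share was 23.7%, and in sub-cluster 4 (median 2223 UMIs per cell) 4.85%. After thinning, sub-clusters 9, 11, 6 and 4 had 22.3%, 7.78%, 9.23% and 2.11%. Sub-cluster 11 was thus not above sub-cluster 6 (108 CPM) or the skin sub-cluster 5 (102 CPM) for this gene. *HAUS2*, a subunit of the augmin complex that seeds spindle microtubules, was the other mitotic gene at least 2-fold higher in sub-cluster 9, at a ratio of 1.07 (0.52 to 1.65). *CDK1*, *CCNB3* and *CDC20* were higher in sub-cluster 9 by less than 2-fold, at 0.78 (0.58 to 0.97), 0.78 (0.47 to 1.09) and 0.70 (0.48 to 0.91). *UBE2S*, *HMGB2* and *BUB1B* followed at 0.61, 0.44 and 0.43. For *UBE2C*, at 865 CPM in sub-cluster 9, compared with 801 CPM in sub-cluster 11, the interval of the ratio included 0 (0.11, −0.03 to 0.25), as it did for *CENPE* (0.02, −0.25 to 0.29).

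In the other direction stood *AURKA* (ENSGALG00000007768), the kinase of spindle poles and centrosomes. It had 91.9 CPM (73.2 to 114) in sub-cluster 9, compared with 328 CPM (295 to 363) in sub-cluster 11, a log2 ratio of −1.83 (−2.19 to −1.49). An *AURKA* UMI was found in 21.3% (16.8 to 26.3%) of the cells of sub-cluster 9 and 56.4% (51.1 to 61.6%) of sub-cluster 11, against 0.301% of sub-cluster 8, and in 7.64%, 27.5% and 0.150% after thinning. *MKI67* (ENSGALG00000025996) showed a like difference, with 102 CPM (82.1 to 125) in sub-cluster 9, compared with 341 CPM (308 to 377) in sub-cluster 11 (−1.74, −2.09 to −1.41), and UMIs in 22.9% and 60.3% of their cells. The share of cells with an *MKI67* UMI was 32.4% in sub-cluster 7, above sub-cluster 9, and 1.35% in sub-cluster 8. After thinning, sub-clusters 9, 11, 7 and 8 had 8.64%, 28.1%, 14.1% and 0.602%.

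The other mitotic genes at least 2-fold lower in sub-cluster 9 than in sub-cluster 11 came from the kinase, anaphase-promoting complex, kinetochore and spindle lists, *MKI67* being the only one among chromosome structure genes. *FBXO5* had 12.2 CPM in sub-cluster 9, compared with 92.1 CPM in sub-cluster 11 (−2.92, −3.96 to −2.02), on 11 and 104 UMIs. *NEK2* had 15.5 and 78.8 CPM, and *SGO1* (shugoshin), which protects centromeric cohesion, had 27.7 and 95.6 CPM. *CENPI*, of the inner kinetochore, had 6.65 and 42.5 CPM, and *CENPF* had 650 and 1359 CPM (−1.06, −1.20 to −0.93). *NUSAP1*, which bundles spindle microtubules, had 158 and 351 CPM, and the kinesin *KIF18A* and the abscission factor *CEP55* had ratios of −1.80 and −1.68. *BORA*, which activates the AURKA kinase, had −1.52, and *CENPC*, *HJURP* and *CENPU*, which build the centromere, had −1.26, −1.23 and −1.08. *MELK* and *PLK4*, the remaining 2 of the 16, were at −1.11 each. *FAM72A* (−2.69) and *TICRR* (−2.04), a replication initiation factor, were outside these lists and were among the 10 lowest ratios.

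The lowest ratio for 9 over 11, among genes with at least 30 UMIs in sub-cluster 11, belonged to a linker histone. *HIST1H103* (ENSGALG00000037167), of the H1 family that compacts chromatin, had 123 CPM (101 to 148) in sub-cluster 9, 1367 CPM (1300.0 to 1437) in sub-cluster 11, 2402 CPM in sub-cluster 7 and again only 112 CPM in sub-cluster 6. The log2 ratio for 9 over 11 was −3.48 (−3.77 to −3.20). Its UMIs were spread unevenly, with 111 in 60 cells of sub-cluster 9 (at most 12 in a cell, 2 cells with 10 or more) and 1544 in 205 cells of sub-cluster 11 (at most 55, 58 cells with 10 or more). A UMI was present in 19.9% of the cells of sub-cluster 9 and 56.9% of sub-cluster 11, and the 15.6% of sub-cluster 4 stood close to sub-cluster 9 (7.97%, 41.7% and 7.38% after thinning). By counting intervals, the level of *HIST1H103* in sub-cluster 9 was not separable from that of sub-cluster 4 (120 CPM, 101 to 141) or 6 (93.0 to 133). Sub-cluster 10 was lower, at 76.3 CPM (58.7 to 97.7). Sub-clusters 1 and 5 were higher, at 246 CPM (216 to 279) and 447 CPM (409 to 489). The 3 other linker histone genes measured went the same way, with ratios of −2.42 for *HISTH1*, −2.41 for Histone H1.02 and −2.91 for Histone H1.10. These 4 genes were gathered after their values had been seen. They belong to 1 family, and how reads were split between its members was not tested.

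Among genes with at least 30 UMIs in sub-cluster 9, the 9 highest ratios over sub-cluster 11 rested on few UMIs. *PTTG1* came next, at rank 10. The named genes above it were outside the mitotic and replication lists, and the others had no name, so their function was not known here. *CYR61*, a secreted matrix-associated protein, had 43.2 CPM in sub-cluster 9, compared with 7.97 CPM in sub-cluster 11 on 39 and 9 UMIs (2.44, 1.37 to 3.67). *CYBA*, a subunit of NADPH oxidase, had 39.9 and 8.86 CPM (2.17, 1.13 to 3.35). *EXOSC7*, of the RNA exosome, *GNG4*, a G protein gamma subunit, and the unnamed gene ENSGALG00000040606 had ratios of 1.87, 1.86 and 2.32. Replication genes were slightly lower in sub-cluster 9 than in sub-cluster 11 (2609 and 2953 CPM, −0.18, −0.26 to −0.10), with 4 of 39 at least 2-fold lower and none higher.

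The genes that separated sub-cluster 9 from sub-cluster 11 were also compared between sub-clusters 6 and 7, a pair whose mitotic percent was next highest and whose replication sums were the highest (3817 and 6055 CPM). The 202 genes 2-fold lower in 9 than in 11 had a median log2 ratio of −0.46 for 6 over 7, and 54 of them were 2-fold lower in 6 (4.62% of all genes were). Of these 202 genes, 147 (72.8%) were below 0, compared with 44.3% of all genes. *AURKA*, for example, had 7.09 CPM in sub-cluster 6 but 59.8 CPM in sub-cluster 7, *MKI67* had 10.6 and 170 CPM, and *FBXO5* had 4.43 and 51.4 CPM. The 314 genes 2-fold higher in 9 than in 11 had a median of 0.10 for 6 over 7 (0.07 over all genes). Of them, 57.0% were above 0, near the 55.7% over all genes. At least 2-fold higher in 6 were 17 of the 314, a larger share than the 110 of all 6040 genes (1.82%). *PTTG1* was among the 17, at 108 CPM in sub-cluster 6 but 22.5 CPM in sub-cluster 7. Sub-clusters 6 and 7 share no cells with 9 and 11, but all 4 come from 1 library and were parted by the same clustering of the same genes.

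**Figure D4:**
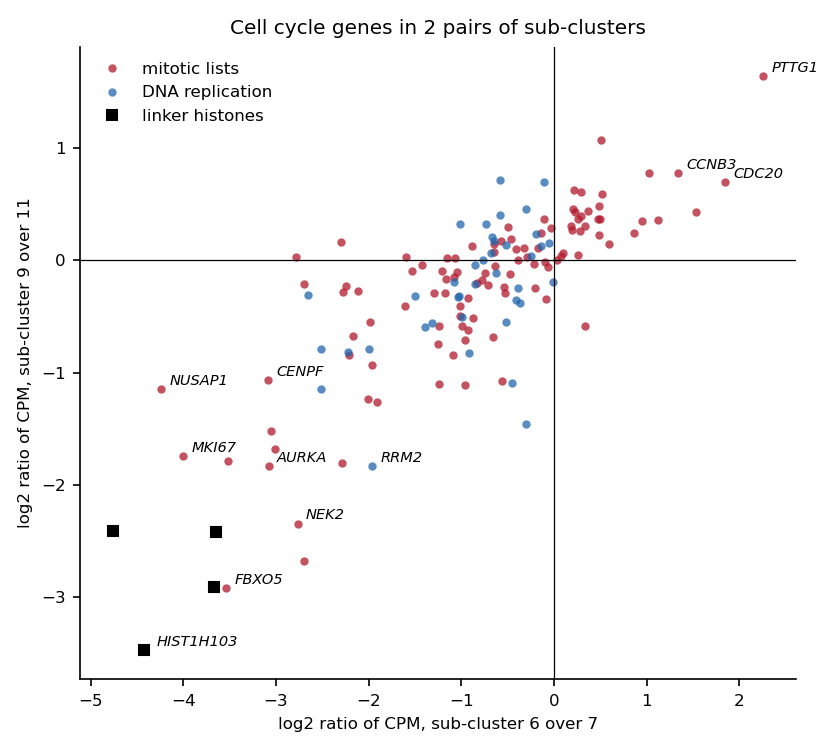
Log2 ratio of CPM for sub-cluster 9 over 11 (y axis) against that for sub-cluster 6 over 7 (x axis), each point a tested gene of the mitotic lists (red), the DNA replication list (blue) or the linker histones (black squares). *HIST1H103*, *AURKA*, *MKI67* and *FBXO5* were low on both axes, and *PTTG1* was high on both.

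Beyond the cell cycle, the composition of the RNA in sub-cluster 9 differed from that of the other sub-clusters. Transcripts of 70 cytosolic ribosomal protein genes made up 34.7% (34.6 to 34.8%) of the UMIs in sub-cluster 9, 36.8% in sub-cluster 6, 39.7% in sub-cluster 11, 40.3% in sub-cluster 7 and 42.8 to 48.9% in the other 7. More genes were detected per cell, with a median of 1032 in sub-cluster 9 against 943 in sub-cluster 11 and 797.5 in all other cells. At 1000 UMIs per cell the medians were 512 in sub-cluster 9, 471 in sub-cluster 11, 487 in sub-cluster 6, 468 in sub-cluster 7 and 390 to 435 elsewhere. Sub-cluster 9 thus had the lowest ribosomal protein share and the most genes at equal depth of all 11. In bulk sums of this kind, fewer ribosomal protein transcripts and more of all other transcripts cannot be told apart.

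**Figure D5:**
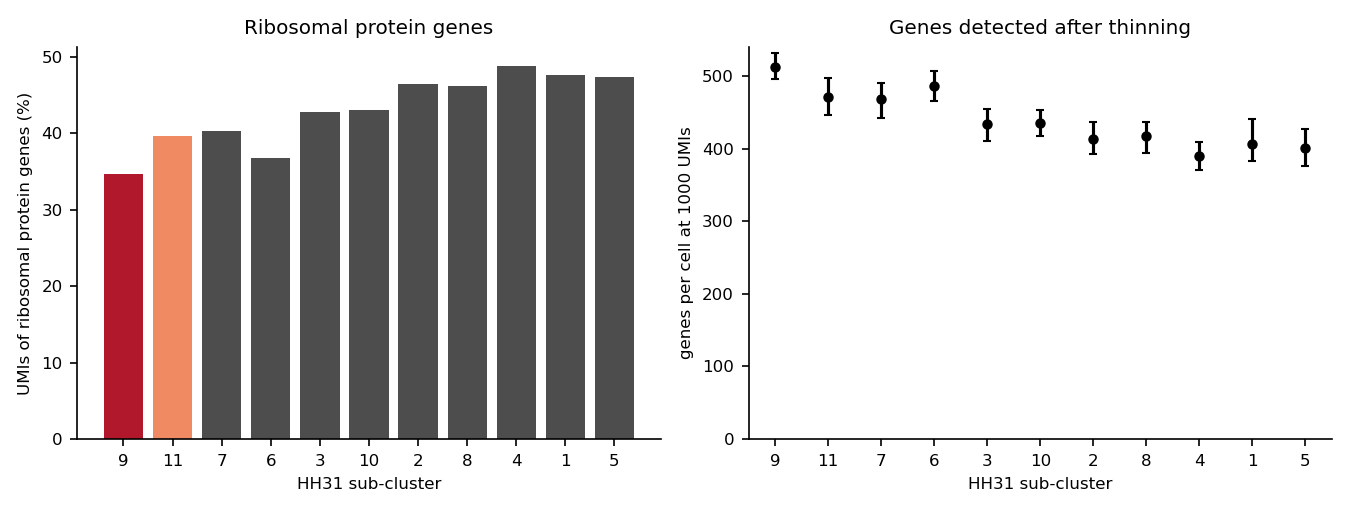
Percent of UMIs from cytosolic ribosomal protein genes (left, bars from summed UMIs) and genes detected per cell at 1000 UMIs (right, median with quartiles) in the 11 HH31 sub-clusters (x axes, sub-cluster 9 leftmost, then 11). Sub-cluster 9 had the lowest share, 34.7%, and the highest median number of genes, 512.

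Several groups of genes with basic cell functions had median ratios above those of all genes (0.28 against all other cells) and of genes with a name (0.34). The list median was 0.55 for 51 splicing factors, 0.51 for 27 proteasome subunits, 0.56 for 32 chaperonin and heat shock genes, and 0.45 for 50 mitochondrial ribosomal proteins, but 0.22 for 59 nuclear genes of the respiratory chain, and few of these genes passed 2-fold. On the reduced totals these medians were 0.30, 0.25, 0.31, 0.20 and −0.04, so the last turned. *HSP90AA1*, a chaperone, was among the exceptions, with 1383 CPM in sub-cluster 9, 975 CPM in sub-cluster 11 and 598 CPM in all others (1.21, 1.12 to 1.30 over all others). Of the splicing factors 25 of 51 and of the mitochondrial ribosomal proteins 26 of 50 were highest in sub-cluster 9, but only 6 of 59 respiratory chain genes (10.2%), where the share of all genes was 26.2%. The list sums of sub-cluster 6 were near or above those of sub-cluster 9. In 9 and 6 respectively, splicing factors had 19088 and 19311 CPM, proteasome subunits 5138 and 5149, and respiratory chain genes 32544 and 37000. Mitochondrial ribosomal proteins had 8961 and 8906 CPM, and chaperonin and heat shock genes 9460 and 8947. High levels of these lists were thus not particular to sub-cluster 9. These lists lean on the naming, since 46 of the 51 splicing factors and 42 of the 50 mitochondrial ribosomal proteins stand in the study's table of sub-cluster 9, and 6 and 15 were named only there. Without those, the 2 medians were 0.54 and 0.46, but the lists remain no independent evidence.

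At stage HH29, the fine cluster with the most mitotic transcripts was number 5, with 577 of 6823 cells. Its median share of UMIs from mitotic genes, those of chromosome structure left out, was 4.06%, against 0.515 to 1.83% in the other 17. The 2 libraries differ in platform, stage and dissection, so their values are set side by side only. The named genes of the mitotic lists summed to 69660 CPM in HH29 sub-cluster 5 and 31819 CPM in all other HH29 cells (log2 ratio 1.13, 1.12 to 1.14). Of the 107 tested, 72 were at least 2-fold higher and none lower, where 2.14% of 8826 genes were higher and 6.39% lower. Since HH29 sub-cluster 5 was singled out by its share of most of these same genes, the sum and counts are not independent evidence. HH29 sub-cluster 5 was high in the genes that marked HH31 sub-cluster 9 and also in those that marked HH31 sub-cluster 11. For *CCNB3* and *CDC20* the ratios were 2.55 (2.43 to 2.68) and 2.23 (2.14 to 2.32) in HH29 sub-cluster 5, and for *AURKA* and *MKI67* 2.29 (2.19 to 2.39) and 1.54 (1.48 to 1.61). In HH31 sub-cluster 9 these 4 ratios were 3.70 (3.42 to 3.98), 3.34 (3.16 to 3.53), 1.05 (0.70 to 1.38) and 0.58 (0.25 to 0.89). *FBXO5* had 1.64 (1.48 to 1.80) at HH29 and −0.79 (−1.81 to 0.08) in HH31 sub-cluster 9, and *HIST1H103* had −0.18 and −2.33. The comparators of these ratios were unlike. All other HH31 cells included sub-cluster 11, whose median mitotic share of 1.85% was close to the 1.73% of sub-cluster 9. The other HH29 cells held no cluster near the 4.06% of HH29 sub-cluster 5. How far this shaped the differences between the 2 stages was not tested.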

How the data were processed

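Single-cell tables of 3 stages, 1 per stage, were used, and the HH31 table was the main one. Per the labels and the methods, the authors mapped the 10x reads with Cell Ranger, for which the submitters' processing notes give version 2, and deposited UMI counts, raw and not normalized, for every gene in every cell. The authors also deposited S and G2M scores between 0 and 1 for each cell, which are the fraction-like output of a cell cycle classifier, a score for their difference, and the number of each cell's broad and fine cluster. They clustered after removing the effects of library size, mitochondrial share and this difference of scores. The methods state filters of 4 times the mean and 20% of the median UMI number and 10% mitochondrial or ribosomal UMIs. All deposited cells were used. These filters, applied again with 12 named mitochondrial genes and without the ribosomal limit, which ribosomal protein genes exceeded, would have removed 240 cells, 12 of them in sub-cluster 9. No doublet caller was run, so doublets were left as the authors' upper UMI limit left them.

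UMIs were summed over the cells of a population and divided by their total to give CPM. Sums and per-cell shares of a gene list took in all of its named genes. Counts and medians of ratios took in only those with at least 100 UMIs. Genes with at least 100 UMIs in the HH31 table were compared (6040 of 9127), a difference of at least 2-fold was counted, and a population without a UMI was set to 3 UMIs. Intervals for sums, ratios and shares were exact 95% intervals for counting error. For shares of cells and genes per cell, each cell was thinned to 1000 UMIs (seed 11). No test was run, as 1 library per stage has no replicates. Pooled counts were also simulated as Poisson draws with 200 changed genes. The interval held the simulated ratio for 187 genes at 2-fold and 195 at 4-fold against all other cells, and for 193 and 196 against sub-cluster 11. Because the interval assumes such draws, this checked its computation only. The uneven spread of UMIs over cells was not simulated.

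The tables hold Ensembl gene identifiers, and names came from the study's marker and module tables, which were partly shortened. They named 3010 of 9127 genes and 2692 of the 6040 compared. Named in the text were *CCNB3* and *CDC20*, members of the gene lists with at least 100 UMIs, and the 10 highest and 10 lowest ratios of each comparison among genes with at least 100 UMIs in the higher population (30 for sub-cluster 11). Some genes that this rule covers are not reported here. Population and lists were chosen with earlier results of these data known. The software was Python 3.11.15, scipy 1.17.1, pandas 2.3.3, numpy 2.4.6 and matplotlib 3.10.9.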

Additional observations from a re-analysis of the deposited data

How the results depend on the processing

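Of 71 recomputed values, 42 stayed within counting error or within 1.5 times a count and 29 moved. Of the summed mitotic and replication ratios recomputed, none whose interval excluded 0 changed its sign. Ratios of single lists were not among the 71 values. Counts of genes have no sign, so a turn could not be recorded for them. With ribosomal protein and mitochondrial genes out of the totals, 134 genes were higher and 361 lower than in all other cells (289 and 241 on full totals). Against sub-cluster 11 the counts were 201 and 280 (314 and 202 on full totals). The lower genes thus became the more numerous in both comparisons. On these reduced totals the summed mitotic ratio was 1.16 against all others and −0.13 against sub-cluster 11, and the replication ratio was −0.28 and −0.32. Against all other cells, counts of higher and lower genes were 613 and 405 with thinned cells, 1405 and 496 at 1.5-fold, and 603 and 614 with a minimum of 20 UMIs. Against sub-cluster 11 they were 694 and 454, 1160 and 483, and 874 and 604 under the same settings, and 191 and 109 where the interval had to lie beyond 0, a setting chosen after seeing the data. The mitotic ratio against all others was 1.51 as a mean over cells, 1.5 with thinned cells, 1.5 without the cells of highest UMI number, 1.67 without sub-cluster 11 among the others, 1.02 against sub-cluster 7 alone and 1.22 without sub-clusters 5, 1 and 2. The replication ratio was −1.21 against sub-cluster 7 and −0.23 without sub-clusters 5, 1 and 2. The ribosomal protein share was 34.9% as a median over cells. Why these values moved was not tested, except that the lower minimum let in genes with fewer UMIs (8735 in place of 6040 compared). No paired analysis was possible because each stage was 1 library. Leaving out replicates was not possible for the same reason. A depth of 902816 UMIs in sub-cluster 9 limits genes with few UMIs most.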

Other observations

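Gene groups not described above were measured for signs of handling and of free RNA. Of 7 genes known to respond to tissue dissociation, *HSP90AA1* alone was at least 2-fold higher in sub-cluster 9 than in all other cells (list median 0.48). None of 6 apoptosis genes passed 2-fold in either direction (list median 0.40). *HBAA*, an alpha globin of red blood cells, had 595 CPM in sub-cluster 9, 499 CPM in sub-cluster 11 and 529 CPM in all other cells, so it was measured at like levels where no red blood cell population had been assigned. The median share of UMIs from mitochondrially encoded genes was 6.38% per cell in sub-cluster 9 and 7.16% in sub-cluster 11.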
